A study of Homo sapiens with 9 samples.

Results

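The DNA replication and S phase genes are 47 genes of the replication fork and of entry into S phase. They were taken by symbol from a fixed list of names, which was set with earlier results of these data known. All 47 were in both deposited count tables, among 18293 genes that the tables share, and all 47 were among the 18284 genes tested. They were measured in HMEC-1 cells, a line derived from human dermal microvascular endothelium and immortalised with SV40 large T antigen, a viral protein that binds the retinoblastoma family of E2F inhibitors. All cells were kept in MCDB131 medium at 5.5 mM glucose and exposed for 16 h to the same solvent, DMSO. The groups were AMI-5 at 100 µM, AMI-1 at 100 µM and DMSO alone as the control, with 3 libraries each, and the question was how the endothelial transcriptome responds to pharmacological inhibition of methyltransferases. AMI-5 is a brominated xanthene dye salt and AMI-1 is a urea that joins a pair of hydroxynaphthalene sulfonic acids. HMEC-1 is a single line, and no label says whether the 3 libraries of each group were grown separately. Every p therefore sets a difference between groups only against the spread of these libraries. In the main test below, that is the spread left after differences between replicate numbers are taken out.

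Replication is licensed in G1, when the origin recognition complex, CDC6 and CDT1 load the MCM helicase onto DNA. In S phase CDC45 and the GINS complex turn that helicase on, primase and the polymerases copy the strands, and PCNA, its loader RFC, FEN1 and LIG1 complete the lagging strand. Many of these genes are transcribed in late G1 under E2F factors, and their summed RNA is widely read as a sign of cells entering S phase. In bulk RNA a smaller share of cells in S phase and less RNA per cell cannot be told apart.

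The sequences upstream of a few of these genes are shown first, because the group is known for E2F sites in its promoters and because the first 3 genes below are those that passed the test with AMI-5. They are the 250 bases before the RefSeq start on GRCh38.p14, 5′ to 3′ on the gene's strand. Capitals mark the letters TTTCCCGC, TTTCGCGC, TTTGGCGC or TTTGCCGC on either strand, called the E2F letters here, and CCAAT on either strand. POLD2 lies at chr7:44123549-44123798 (minus strand), POLD1 at chr19:50384073-50384322 (plus), LIG1 at chr19:48170345-48170594 (minus), PCNA at chr20:5126623-5126872 (minus) and MCM6 at chr2:135876444-135876693 (minus). PCNA and MCM6 are shown for comparison, as genes that hold both kinds of letters and did not pass the test.
POLD2: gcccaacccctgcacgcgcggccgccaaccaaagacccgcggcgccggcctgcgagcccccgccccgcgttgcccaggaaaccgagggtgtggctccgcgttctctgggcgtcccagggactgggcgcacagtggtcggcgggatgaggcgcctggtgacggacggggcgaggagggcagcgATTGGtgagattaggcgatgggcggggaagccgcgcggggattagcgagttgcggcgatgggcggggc
POLD1: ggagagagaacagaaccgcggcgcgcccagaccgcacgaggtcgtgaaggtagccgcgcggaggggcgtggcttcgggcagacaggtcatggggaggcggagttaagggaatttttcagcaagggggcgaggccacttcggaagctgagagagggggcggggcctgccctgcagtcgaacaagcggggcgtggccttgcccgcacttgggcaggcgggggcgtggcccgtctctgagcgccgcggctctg
LIG1: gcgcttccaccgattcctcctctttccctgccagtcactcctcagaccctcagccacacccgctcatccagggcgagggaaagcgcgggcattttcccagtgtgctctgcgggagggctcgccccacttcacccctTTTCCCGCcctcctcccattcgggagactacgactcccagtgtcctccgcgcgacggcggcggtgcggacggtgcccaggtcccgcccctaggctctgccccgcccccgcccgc
PCNA: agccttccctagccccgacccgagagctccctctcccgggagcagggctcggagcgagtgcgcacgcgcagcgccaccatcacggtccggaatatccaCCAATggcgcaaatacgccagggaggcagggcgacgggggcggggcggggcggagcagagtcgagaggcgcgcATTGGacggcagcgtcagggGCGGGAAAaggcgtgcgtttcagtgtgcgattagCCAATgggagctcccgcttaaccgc
MCM6: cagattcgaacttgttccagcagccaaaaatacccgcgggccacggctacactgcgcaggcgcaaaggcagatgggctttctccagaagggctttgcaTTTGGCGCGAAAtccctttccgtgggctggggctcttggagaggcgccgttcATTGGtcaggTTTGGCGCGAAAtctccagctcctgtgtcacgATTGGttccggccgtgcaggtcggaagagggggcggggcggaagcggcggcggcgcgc

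Of the 47 genes, 40 matched the RefSeq table by symbol, with 52 windows because some have more than 1 start. MCM4, MCM5, GINS4, POLD3, RPA2, RPA3 and CCNE2 were not matched. E2F letters stood in 16 of the 52 windows (30.8%), belonging to 15 genes, against 979 of 35116 windows of all genes (2.79%). CCAAT stood in 31 of the 52 windows (59.6%), belonging to 25 genes, against 11240 windows of all genes (32.0%). The POLD2 window holds CCAAT on the strand opposite to the gene, at position -68 from the start, and no E2F letters, the POLD1 window holds neither, and the LIG1 window holds E2F letters at position -114. In MCM6 each of the 2 blocks of E2F letters is a pair of overlapping matches, 1 on each strand. None of the letters searched is common to the windows of the 3 genes that passed the test with AMI-5, and a match describes letters, not binding.

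With AMI-5, POLD2, POLD1 and LIG1 fell, to 0.793, 0.84 and 0.863 times the control level, and none of the 47 genes rose. POLD1 encodes the catalytic subunit of DNA polymerase delta, POLD2 its accessory subunit, and LIG1 the ligase that joins Okazaki fragments. With AMI-1, no replication gene passed the test in either direction. The 3 calls were 6.38% of the group, against 10.9% of all genes tested called in that comparison, or 7.45% called lower and 3.42% called higher. The AMI-1 comparison called 0.421% of all genes, 0.241% higher and 0.18% lower. These shares come from the quasi-likelihood test of edgeR with replicate number as a block and Benjamini-Hochberg adjustment over all 18284 genes at a threshold of 0.05.

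The replicate block decided whether anything was called. Deviations from the group means correlated between libraries of the same replicate number, at 0.831 to 0.871 for replicates 1 and 2. For replicate 3 the correlation was weaker, at 0.431 to 0.647. Without the block no gene of the 18284 passed the test in any of the 3 comparisons. An unadjusted p under 0.05 was found there in 494 genes with AMI-5 and 188 with AMI-1. Without the block the POLD2 difference with AMI-5 was -0.33 on the log2 scale, with an adjusted p of 1.0. DESeq2 with the same block called POLD2 and POLD1 lower with AMI-5 and not LIG1 (adjusted p = 0.0508), 1359 genes in all with AMI-5 (7.43%), and 0 of the 47 genes with AMI-1.

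POLD2 (ENSG00000106628.6) had 133, 89.8 and 125 CPM in the AMI-5 libraries of replicates 1, 2 and 3, 151, 112 and 131 CPM in the AMI-1 libraries, and 169, 115 and 155 CPM in the control libraries, where CPM is the gene's share of the library's counts, scaled by TMM. Within every replicate number the AMI-5 library was the lowest and the control library the highest, and replicate 2 was low in all 3 groups, which overlap in CPM. The log2 fold change with AMI-5 was -0.33 ± 0.06 (SE, 95% interval -0.46 to -0.21, adjusted p = 0.00217), and the pairs gave -0.35, -0.36 and -0.31. With AMI-1 it was -0.15 (-0.27 to -0.03, adjusted p = 0.381), and AMI-5 against AMI-1 gave -0.19 (-0.31 to -0.06, adjusted p = 0.075). POLD2 kept its call with AMI-5 when each of the 9 libraries was left out in turn, with adjusted p between 5.72e-06 and 0.0469.

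POLD1 (ENSG00000062822.7) had 122, 60.9 and 113 CPM with AMI-5, 139, 75.8 and 101 CPM with AMI-1 and 165, 70.4 and 122 CPM in control. The 3 replicate numbers differed more than the groups did, with replicate 2 lowest throughout. The change with AMI-5 was -0.25 ± 0.08 (adjusted p = 0.0484), with pairs of -0.43, -0.21 and -0.11. LIG1 (ENSG00000105486.8) had 94.8, 64.5 and 90.0 CPM with AMI-5, 117, 74.9 and 90.7 CPM with AMI-1 and 112, 72.7 and 104 CPM in control. Its AMI-5 library was below the control library in each of the 3 pairs (-0.24, -0.17 and -0.21), and its change was -0.21 ± 0.06 (adjusted p = 0.0433).

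POLD1 was also lost with the size factors of DESeq2 in place of TMM (adjusted p = 0.0537). POLD1 and LIG1 were both close to the threshold and both lost their calls when any of several libraries was left out. POLD1 was not called without AMI-1 replicate 1, AMI-5 replicate 1 or 2, or control replicate 1 or 3, where its adjusted p reached 0.358. LIG1 was not called without any of those libraries or without control replicate 2, and its adjusted p reached 0.33. Calls over all genes fell in these fits too, from 10.9% with all 9 libraries. The share was 7.3% without AMI-1 replicate 1 and 0.941% and 1.61% without AMI-5 replicates 1 and 2. Without control replicates 1, 2 and 3 it was 1.61%, 9.33% and 1.41%. The number called moved the other way without AMI-1 replicate 2 or AMI-5 replicate 3 (6 lower and 1 higher in each, beside 16.0% of all genes called) and without AMI-1 replicate 3 (7 lower and 4 higher, beside 23.1%). Libraries of AMI-1 bear on this comparison through the spread that all 9 libraries share. With the AMI-5 and control libraries alone, 8 of the 47 genes were called lower and 4 higher, beside 23.6% of all genes called.

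**Figure D1:**
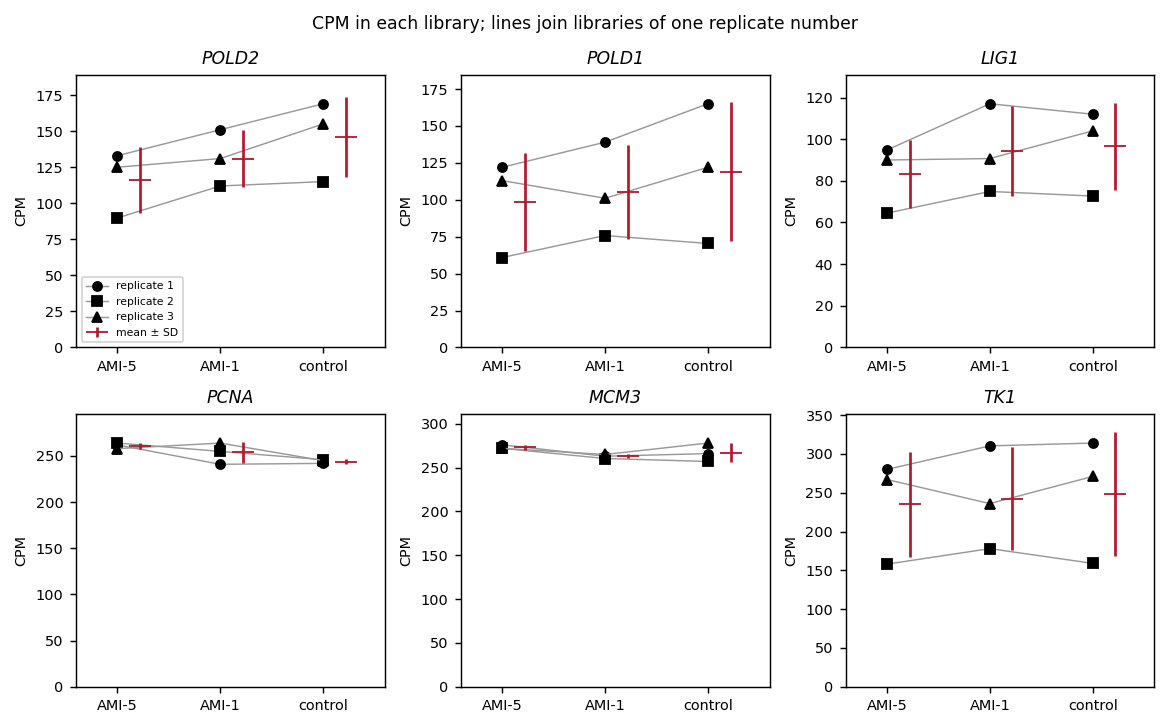
CPM (TMM-scaled, linear axes from 0) of 6 replication genes in the AMI-5, AMI-1 and control libraries; black symbols are libraries, grey lines join libraries of 1 replicate number, and red bars give the mean and SD (n = 3). In POLD2 all 3 lines lead upward toward control, in POLD1, LIG1 and TK1 replicate 2 lies below the other libraries in every group, and PCNA and MCM3 differ little between libraries.

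Transcript GC content moved with these differences. Over the 47 genes the log2 fold change with AMI-5 had a Pearson r of -0.73 with the GC content of the longest transcript, and the same r was -0.50 across 14977 genes (those averaging a log2 CPM above 1). The genes share libraries, so both values are descriptions. Among the 23 genes of highest GC content 16 were below 0 (median -0.089), and among the 23 of lowest GC content 20 were above 0 (median 0.096). POLD1 has the highest GC content of the group (65.0%), CCNE2 the lowest (36.9%), and POLD2 and LIG1 have 59.1% and 56.4%, against a median of 48.5% for the 47 genes and 48.1% for all genes.

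When each library's dependence on GC content was removed with the block kept, r over the 47 genes became -0.13 and the medians of the high and low GC genes became -0.005 and 0.039. The curve is fitted in each library, treated ones included, so the smaller r and closer medians follow from how the correction is made. It would also remove any difference between treatments that follows GC content. POLD2 stayed lower with AMI-5 (-0.20, adjusted p = 0.000829). POLD1 came to -0.04 (adjusted p = 0.608) and LIG1 to -0.11 (adjusted p = 0.0777), and neither passed. TK1, thymidine kinase of the salvage pathway, was called higher after the correction (0.12, adjusted p = 0.0239) and measured -0.07 before it (adjusted p = 0.534). It had 280.1, 158 and 267 CPM with AMI-5, 310.4, 178 and 236 CPM with AMI-1 and 314, 159 and 271 CPM in control, and is named after its values were seen. The 2 calls compare with 13.1% of all genes called after the correction (5.15% higher and 7.96% lower), of which 60.7% were lower, against 68.6% lower without it.

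**Figure D2:**
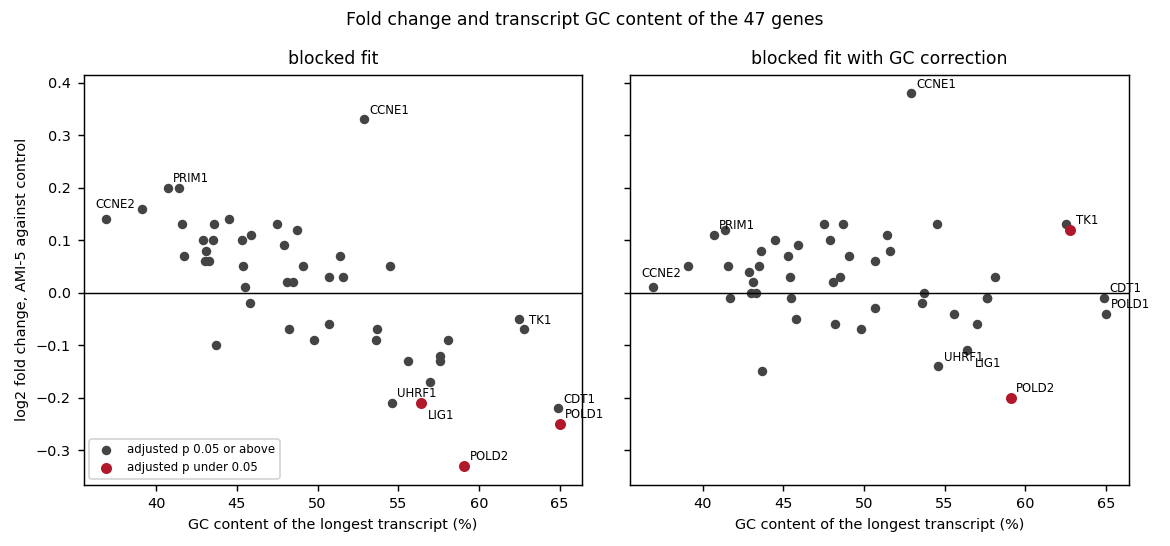
Log2 fold change of AMI-5 against control (y axis) against transcript GC content in percent (x axis) for the 47 genes, with the replicate block alone (left) and with the block and a GC correction (right); red points have an adjusted p under 0.05. The cloud slopes downward on the left (r -0.73) and is nearly level on the right (r -0.13), where POLD2 and TK1 are the red points. The correction is made to take out this slope.

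The other genes of the group lay close to control, and for most the fit with the replicate block bounded the size of a difference. The intervals hold under that block. The biological coefficient of variation was 5.64% with it and 23.7% without it. With AMI-5 the 95% interval lay wholly within 1.25-fold either way in 39 of 47 genes (42.1% of all genes tested) and within 1.5-fold in 46 (76.5% of all genes). With AMI-1 the counts were 45 (53.9% of all genes) and 46 (80.0%). The widest intervals belong to CCNE1, which had the fewest reads, 66 to 154 per library. The fold changes of the 47 genes with AMI-5 ran from -0.33 to 0.33 on the log2 scale, with 28 above 0, 19 below 0 and a median of 0.034, beside a median of -0.005 for all genes. With AMI-1 they ran from -0.15 to 0.31, with 29 above 0 and a median of 0.018, beside -0.002 for all genes. Both comparisons use the same control libraries.

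An unadjusted p under 0.05 was found in 14 of the 47 genes with AMI-5 (27.2% of all genes) and in 4 with AMI-1 (10.1% of all genes), namely CCNE2, POLD2, RRM2 and CCNE1. All 3 pairs pointed one way in 32 genes with AMI-5 (53.6% of all genes) and in 13 with AMI-1 (30.2% of all genes). PCNA and GINS3 were the only members whose AMI-5 and control libraries did not overlap in CPM (7.35% of all genes), and RRM2 the only one whose AMI-1 and control libraries did not (4.0% of all genes).

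**Figure D3:**
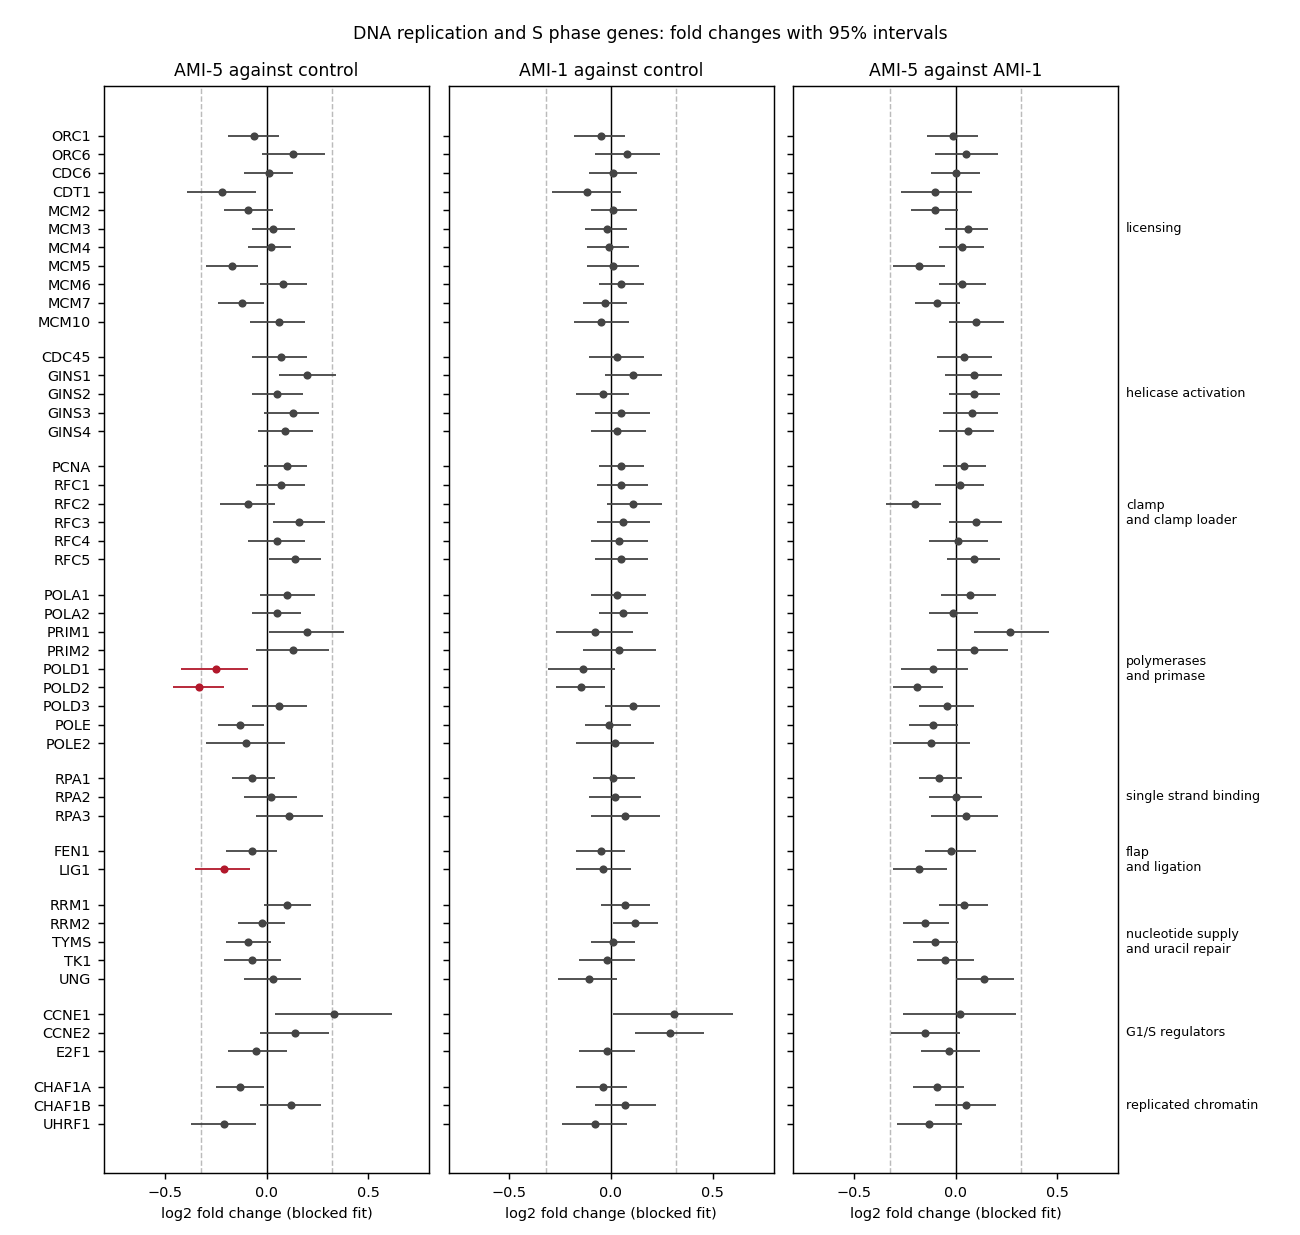
Log2 fold change (x axis, points) with its 95% interval (lines) for each of the 47 genes, in 3 panels that set AMI-5 against control, then AMI-1 against control, then AMI-5 against AMI-1, grouped by role; red marks an adjusted p under 0.05 and the dashed lines stand at 1.25-fold. Red appears for POLD1, POLD2 and LIG1 in the first panel alone, and the longest lines are those of CCNE1.

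Among the 11 genes of origin licensing and helicase loading, 6 were above and 5 below control with AMI-5 (median 0.01), and none passed the test. CDT1, which brings MCM to origins, had 89.6, 36.8 and 80.0 CPM with AMI-5, 105, 45.0 and 69.8 CPM with AMI-1 and 115, 41.7 and 86.1 CPM in control. The spread of CDT1 between replicate numbers was 2.51-fold, the widest of the group, and its difference with AMI-5 was -0.22 (-0.39 to -0.05, adjusted p = 0.0914), or -0.01 after the GC correction. ORC6, a subunit of the origin recognition complex, averaged 42.8 ± 11.0 CPM with AMI-5, 40.6 ± 5.11 with AMI-1 and 38.5 ± 5.72 in control (SD, n = 3 each). Its difference with AMI-5 was 0.13 (-0.02 to 0.29, adjusted p = 0.258), and most of it came from replicate 2, with a pair value of 0.30.

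The 6 subunits of the MCM2-7 helicase form 1 ring with 1 copy of each, and none passed the test in any comparison. MCM4 had 386, 402 and 379 CPM with AMI-5, 379, 375 and 389.5 CPM with AMI-1 and 394, 379 and 381 CPM in control. These 9 values lie close together, with a difference of 0.02 (-0.09 to 0.12, adjusted p = 0.873) with AMI-5. MCM3 had 276, 272 and 272 CPM with AMI-5, 263, 260.4 and 265 CPM with AMI-1 and 266, 257 and 278 CPM in control. MCM5 had 212, 131 and 203 CPM with AMI-5, 248, 159.8 and 207 CPM with AMI-1 and 254, 142 and 221 CPM in control, so that replicate 2 was low in every group. MCM5 differed by -0.17 with AMI-5 (-0.30 to -0.04, adjusted p = 0.081) and by 0.01 with AMI-1 (adjusted p = 0.973). MCM2, MCM6 and MCM7 gave -0.09, 0.08 and -0.12 with AMI-5 (adjusted p = 0.319, 0.333 and 0.143). After the GC correction MCM2, MCM5 and MCM7 gave 0.03, -0.06 and -0.01, and none passed.

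All 5 genes of helicase activation, CDC45 and GINS1 to GINS4, were above control with AMI-5 (0.05 to 0.20, median 0.094), and none passed the test. GINS1 came closest, with 52.1, 77.2 and 66.4 CPM with AMI-5, 48.7, 67.8 and 66.4 CPM with AMI-1 and 49.0, 63.7 and 56.9 CPM in control. Its AMI-5 library was the higher of the pair in all 3 replicate numbers, by 0.09, 0.28 and 0.22, and the estimate was 0.20 (0.06 to 0.34, adjusted p = 0.0585). With the AMI-5 and control libraries alone GINS1 passed (0.21, adjusted p = 0.00699), and with the GC correction it gave 0.12 (adjusted p = 0.104). GINS3 had 43.5, 44.3 and 42.7 CPM with AMI-5, 41.5, 41.8 and 40.5 CPM with AMI-1 and 39.0, 41.5 and 38.9 CPM in control, a difference of 0.13 with AMI-5 (adjusted p = 0.203). GINS2 gave the smallest of the 5 values, 0.05, and GINS4 gave 0.09 (adjusted p = 0.604 and 0.366).

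PCNA, the sliding clamp that holds the polymerases on DNA, had 262, 264 and 258 CPM with AMI-5, 241, 255 and 264 CPM with AMI-1 and 242, 246 and 245 CPM in control. The AMI-5 libraries are all above the control libraries, by a small amount: 0.10 (-0.01 to 0.20, adjusted p = 0.238), with pairs of 0.12, 0.10 and 0.07. Of the 5 subunits of its loader, RFC3 gave the highest value with AMI-5, 0.16 (0.03 to 0.29, adjusted p = 0.106), with 60.2, 93.7 and 71.1 CPM with AMI-5, 54.1, 84.2 and 71.2 CPM with AMI-1 and 51.1, 87.8 and 63.6 CPM in control. RFC2 was the only 1 of the 6 below control with AMI-5, at -0.09 (adjusted p = 0.38). RFC1, RFC4 and RFC5 gave 0.07, 0.05 and 0.14, and no gene of the clamp or its loader passed in any comparison.

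Both called polymerase genes belong to DNA polymerase delta, and the rest of the 9 polymerase and primase genes did not pass. POLD3, a further subunit of that enzyme, had 51.2, 67.7 and 53.0 CPM with AMI-5, 51.1, 64.8 and 60.4 CPM with AMI-1 and 47.6, 63.3 and 53.4 CPM in control. It gave 0.06 with AMI-5 (-0.07 to 0.20, adjusted p = 0.571), so the subunits of the enzyme had different values before the GC correction. The GC content of POLD3 is 43.0%, against 65.0% for POLD1 and 59.1% for POLD2. After the correction POLD3 gave 0.0 and POLD1 -0.04, and only POLD2 (-0.20) stood apart. POLE, the catalytic subunit of the leading strand polymerase epsilon, had 194, 162 and 179 CPM with AMI-5, 214, 179 and 186 CPM with AMI-1 and 228, 166 and 194 CPM in control, a difference of -0.13 (adjusted p = 0.153). PRIM1, the catalytic primase subunit, gave 0.20 with AMI-5 (0.01 to 0.38, adjusted p = 0.153) and -0.08 with AMI-1 (adjusted p = 0.823). Its partners POLA1, POLA2 and PRIM2 gave 0.10, 0.05 and 0.13 with AMI-5.

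RPA1 and RPA3, subunits of the single strand binding complex, gave -0.07 and 0.11 with AMI-5 (adjusted p = 0.43 and 0.372). RPA1 had 356, 363 and 350.1 CPM with AMI-5, 357, 379.7 and 392 CPM with AMI-1 and 357, 378 and 384 CPM in control, a 1.05-fold spread between replicate numbers. FEN1, the nuclease that trims Okazaki fragments before ligation, had 170.1, 133 and 164 CPM with AMI-5, 174, 146 and 154 CPM with AMI-1 and 169, 145 and 175 CPM in control. FEN1 gave -0.07 with AMI-5 (-0.20 to 0.05, adjusted p = 0.45), beside the -0.21 of LIG1.

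The large subunit of ribonucleotide reductase, RRM1, had 325, 374 and 329 CPM with AMI-5, 295, 349.6 and 359 CPM with AMI-1 and 284, 356 and 318 CPM in control, a difference of 0.10 with AMI-5 (adjusted p = 0.245). The small subunit, RRM2, had 267, 301 and 281 CPM with AMI-5, 301, 306 and 332 CPM with AMI-1 and 269, 294 and 299 CPM in control. All 3 AMI-1 libraries of RRM2 are above all control libraries, with a difference of 0.12 (0.01 to 0.23, adjusted p = 0.45), while AMI-5 gave -0.02 (adjusted p = 0.819). TYMS, which makes thymidylate, gave -0.09 with AMI-5 and 0.01 with AMI-1 (adjusted p = 0.283 and 0.967). UNG, which removes uracil from DNA, gave 0.03 and -0.11 (adjusted p = 0.806 and 0.593).

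The cyclin E genes, whose products drive CDK2 at the G1/S boundary, gave the highest values of the group with AMI-1. CCNE2 had 26.8, 54.4 and 33.6 CPM with AMI-5, 29.5, 52.0 and 43.2 CPM with AMI-1 and 24.6, 48.1 and 30.8 CPM in control. Both treated libraries are above control within each replicate number, and replicate 2 is high in every group. The AMI-1 difference was 0.29 (0.12 to 0.46, adjusted p = 0.165) and passed after the GC correction (0.21, adjusted p = 0.0321), 1 of 573 genes then called with AMI-1 (3.13%, or 1.24% higher and 1.89% lower), of which 60.4% were lower, against 42.9% without the correction. It also passed without AMI-1 replicate 2. With AMI-5 the difference of CCNE2 was 0.14 (adjusted p = 0.271), or 0.01 after the GC correction.

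CCNE1 had 6.06, 6.71 and 5.83 CPM with AMI-5, 6.24, 5.6 and 6.19 CPM with AMI-1 and 5.96, 3.99 and 4.79 CPM in control. Control replicate 1 reaches into the range of both treated groups, and the other 2 control libraries lie below all treated ones. The differences were 0.33 with AMI-5 (0.04 to 0.62, adjusted p = 0.132) and 0.31 with AMI-1 (0.01 to 0.60, adjusted p = 0.471). E2F1, the transcription factor that activates many genes of the group, had 73.6, 53.7 and 65.7 CPM with AMI-5, 79.0, 56.9 and 61.2 CPM with AMI-1 and 82.3, 51.5 and 66.8 CPM in control. It gave -0.05 with AMI-5 (-0.19 to 0.10, adjusted p = 0.703) and -0.02 with AMI-1 (adjusted p = 0.946). The GC correction turned the AMI-5 value of E2F1 to 0.13 (adjusted p = 0.0553).

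In the group that restores chromatin behind the fork, UHRF1, which binds newly replicated DNA with methyl groups on 1 strand and recruits DNMT1, had 103, 55.1 and 102 CPM with AMI-5, 127, 64.4 and 93.5 CPM with AMI-1 and 139, 60.5 and 107 CPM in control. The AMI-5 library was the lower of each pair, by unequal amounts (-0.43, -0.14 and -0.07), and the estimate was -0.21 (-0.37 to -0.05, adjusted p = 0.0792). CHAF1A and CHAF1B, subunits of the chromatin assembly factor that places histones on new DNA, gave -0.13 and 0.12 with AMI-5 (adjusted p = 0.162 and 0.298). None of the 3 passed in any comparison.

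The compounds were given at the same dose and time, and set directly against each other no replication gene passed the test (5.01% of all genes did, 1.61% higher and 3.4% lower). In AMI-5 against AMI-1 the 47 log2 fold changes ran from -0.20 to 0.27, with 23 above 0, and the 95% interval lay within 1.5-fold in 47 of 47 genes (78.3% of all genes) and within 1.25-fold in 45 (47.7%). MCM5, RFC2, PRIM1, POLD2, LIG1, RRM2 and UNG had an unadjusted p under 0.05 (19.5% of all genes), and in 17 genes all 3 pairs pointed one way (35.2% of all genes). The lowest p values belonged to POLD2, to RFC2 at -0.20 (-0.34 to -0.07, adjusted p = 0.0754), to PRIM1 at 0.27 (0.09 to 0.46, adjusted p = 0.0822) and to MCM5 at -0.18 (-0.31 to -0.05, adjusted p = 0.101). PRIM1 had 20.2, 27.6 and 18.6 CPM with AMI-5 and 14.7, 21.8 and 17.9 CPM with AMI-1. RFC2 had 58.7, 45.4 and 54.2 CPM with AMI-5 and 64.4, 56.6 and 61.0 CPM with AMI-1. In both genes the groups overlap, although all 3 pairs point one way.

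The direct comparison depended on the GC correction and on single libraries. With the correction PRIM1 and UNG were called higher with AMI-5 than with AMI-1 (0.23 and 0.16, adjusted p = 0.0328 and 0.0395), and RRM2, CCNE2 and RFC2 lower (-0.16, -0.21 and -0.16, adjusted p = 0.00398, 0.0127 and 0.0272), beside 11.2% of all genes (4.8% higher and 6.44% lower), of which 57.3% were lower, against 67.9% without the correction. The values of UNG and CCNE2 are named here after they were seen. Without AMI-1 replicate 3, 8 genes were called lower and PRIM1 higher (18.6% of all genes called), and without AMI-5 replicate 3, POLD2 and MCM5 were called lower and PRIM1 higher (8.3%). MCM3, CDC45 and GINS3 were the members whose AMI-5 and AMI-1 libraries did not overlap in CPM (7.49% of all genes), each with AMI-5 higher.

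The replicate number accounted for most of the variation of these genes between libraries. It held 85.6% of their summed variance of log2 CPM, and treatment held 8.28%, beside 81.6% and 10.3% across all genes that averaged a log2 CPM above 1. After the GC correction the shares for the 47 genes were 63.5% for replicate number and 23.0% for treatment. Relative to replicates 1 and 3, replicate 2 ran from -1.13 (CDT1) to 0.73 (CCNE2) on the log2 scale, and over the 47 genes this ratio had an r of -0.91 with GC content. POLD1, UHRF1, CCNE2 and TK1 differed between replicate numbers by 2.05-fold, 2.04-fold, 1.91-fold and 1.83-fold. MCM4, MCM3 and PCNA, which have GC contents of 48.5%, 51.6% and 45.3%, differed by 1.01-fold, 1.03-fold and 1.03-fold. The median SD of log2 CPM between libraries of a group was 0.19 in AMI-5, 0.154 in AMI-1 and 0.19 in control, and 0.0691, 0.0702 and 0.0716 after the GC correction. The correction is made to take out differences between libraries that follow GC content, so these lower SDs and the changed shares partly follow from it. What the replicate numbers stand for was not given, and its part in the results was not tested beyond the block.

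**Figure D4:**
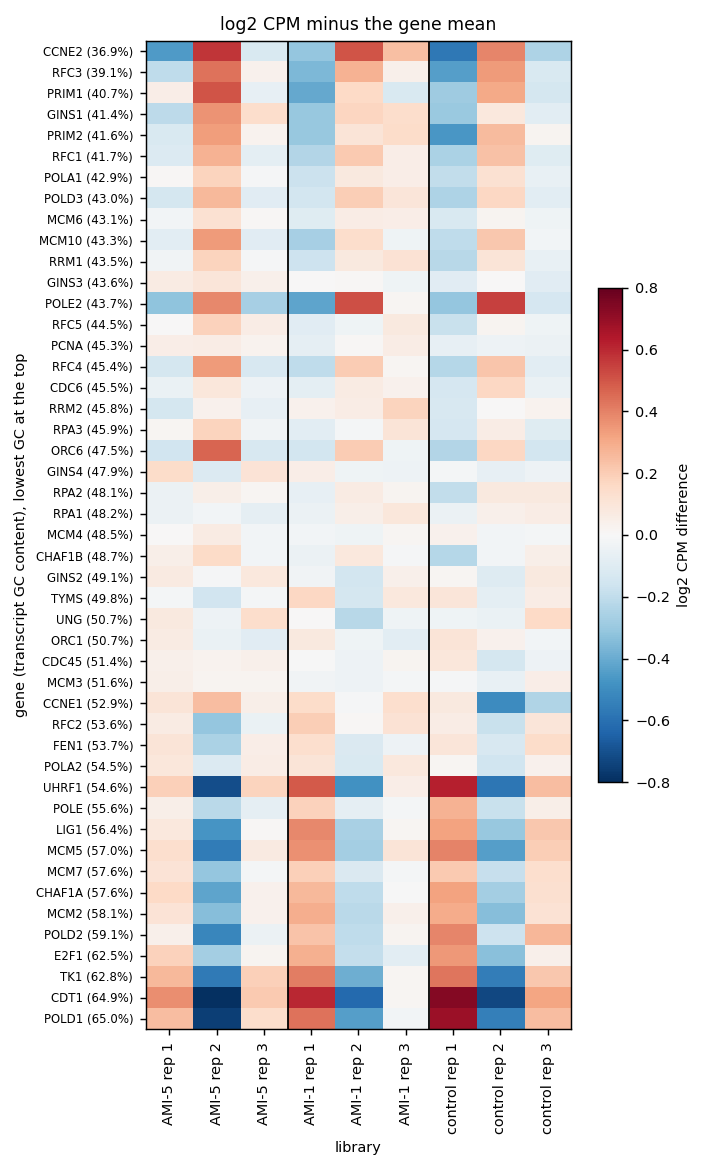
Log2 CPM of each of the 47 genes (rows, lowest GC content at the top) minus the gene's mean over the 9 libraries (columns, AMI-5, AMI-1 and control, replicates 1 to 3 in each); red is above and blue below the mean, on a colour scale from -0.8 to 0.8. Replicate 2 is red in the upper rows and blue in the lower rows of all 3 groups, and replicate 1 shows the opposite colours in AMI-1 and control.

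Summed over the 47 genes, the group held 5848, 5446 and 5740.5 CPM in the AMI-5 libraries, 6025, 5512 and 5886 CPM in the AMI-1 libraries and 6039.6, 5414 and 5927 CPM in the control libraries. Replicate 2 was lowest in each group and the groups overlapped. After the GC correction the 9 sums lay between 5581 and 5833 CPM.

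Levels per length of exon ranked PCNA first in control, at 166 ± 1.68 CPM per kb (SD, n = 3), followed by TK1 at 133 ± 43.0, TYMS at 101 ± 6.42, MCM7 at 82.1 ± 11.5 and RRM1 at 76.5 ± 8.62. PCNA and TK1 do not differ beyond the spread of TK1, and MCM7, RRM1 and MCM3 (73.1 ± 2.93) do not differ beyond theirs. The 6 MCM2-7 subunits, which act in equal number, ranged from 28.0 ± 7.85 CPM per kb (MCM5) to 82.1 (MCM7). The length used joins all annotated exons of a gene, so this order depends on the annotation too. MCM5 and MCM2 averaged 206 and 216 CPM in control, with 7338 and 4902 bases of exon. CCNE1 was last at 1.93 ± 0.388, below POLE2 at 5.91 ± 1.96 by more than both SDs, while POLE2, PRIM2 (6.55 ± 1.58) and GINS3 (7.79 ± 0.289) overlapped in that measure. PCNA was first and CCNE1 last in the AMI-5 and AMI-1 libraries too.

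**Figure D5:**
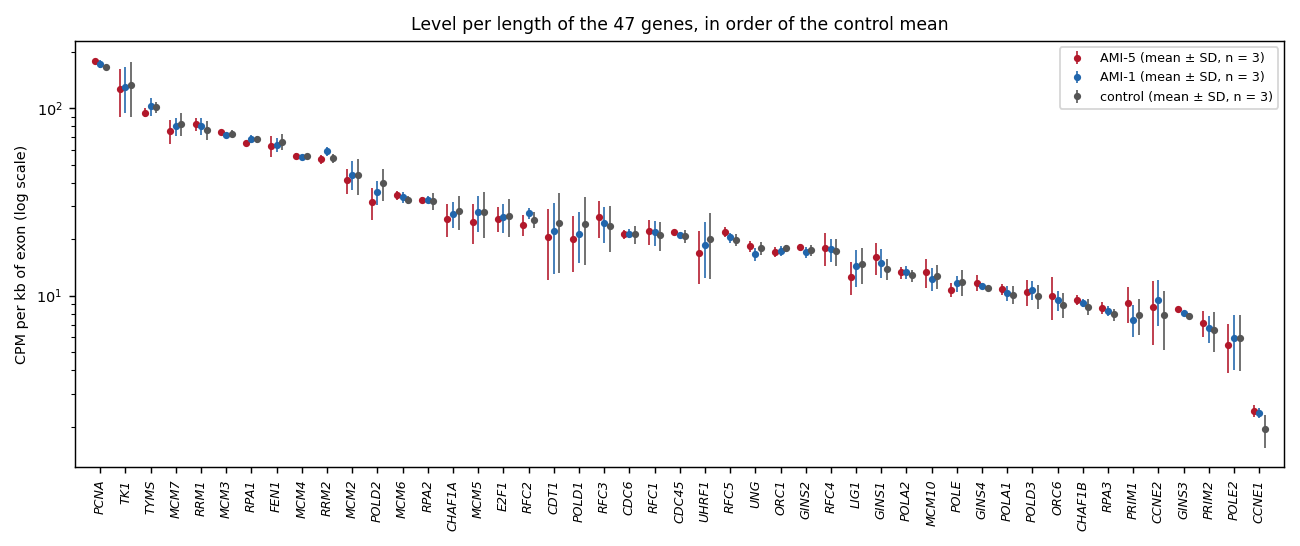
Level per length (CPM per kb of exon, log scale) of the 47 genes in order of the control mean, with the mean and SD of 3 libraries for AMI-5 (red), AMI-1 (blue) and control (grey). PCNA is highest and CCNE1 lowest in all 3 groups, and for most genes the 3 bars overlap.

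For some of these genes the counts may include reads of other genes, because no source used here gives the strand setting or the handling of reads with several matches. In GENCODE release 29, 21 of the 47 genes share exon bases with another gene, 9 of them over more than 10% of their exon length, among them TYMS (46.6%, with ENOSF1 and TYMSOS on the other strand) and CCNE2 (37.1%, with INTS8). PRIM1 shares 21.6% with genes that include NACA on the same strand. The highest of its overlapping genes stood at 208 CPM, and PRIM1 itself averaged 19.3 CPM in control. Named pseudogenes exist for 9 of the 47, including PCNA, RRM2, RPA2 and POLD2.

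Other genes of the pathway, outside the 47, were tallied in the same fit, where 3.42% of all genes were called higher with AMI-5 and 7.45% lower. Of 33 further origin and fork genes, 2 rose with AMI-5 (DSCC1, a subunit of an alternative clamp loader, and ATAD5, which unloads PCNA) and 2 fell (RECQL4, a helicase of origin firing, and TIMELESS). Of 16 further nucleotide synthesis genes 0 rose and 1 fell, of 27 checkpoint and E2F regulator genes 1 rose and 1 fell, and of 12 further chromatin genes of the fork 1 rose and 3 fell. Of 15 G2/M genes 0 rose and 2 fell. With AMI-1 none of these 5 lists had a gene past the threshold before the GC correction, beside 0.421% of all genes. After it CDKN1A and CDKN1B, inhibitors of cyclin-dependent kinases, were called higher with AMI-1, and CTPS1, NME1, CDC20 and PLK1 lower. Of all genes, 1.24% were then called higher with AMI-1 and 1.89% lower. With AMI-5 against control, E2F2 and CDKN1A of the checkpoint list were then called higher, and BUB1, PLK1, BUB1B and MKI67 of the G2/M list lower. CDKN1A was also called higher with AMI-5 than with AMI-1 (4.8% of all genes were). The genes named for calls after the correction are named after these calls were seen, and what the calls mean was not tested. CDKN1B was called lower with AMI-5 than with AMI-1 before and after the correction, and was not called in AMI-5 against control. With AMI-5 the corrected counts, higher and lower, were 4 and 4 in the fork list, 0 and 2 in the nucleotide list, 2 and 0 in the checkpoint list, 1 and 3 in the chromatin list and 0 and 4 in the G2/M list. Of all genes, 5.15% were called higher with AMI-5 after the correction and 7.96% lower. Before the correction the median log2 fold changes of the 5 lists with AMI-5 were 0.088, -0.007, 0.103, 0.039 and -0.026, beside -0.005 for all genes.

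DTYMK, the kinase that follows thymidylate synthase, had the lowest adjusted p of these lists. It averaged 61.0 ± 14.3 CPM with AMI-5, 75.2 ± 16.4 with AMI-1 and 81.1 ± 13.3 in control (SD, n = 3 each), a log2 fold change of -0.42 ± 0.07 with AMI-5 (adjusted p = 0.00171) and of -0.30 in AMI-5 against AMI-1 (adjusted p = 0.0175). It kept its AMI-5 call with each of the 9 libraries left out and after the GC correction (-0.28, adjusted p = 0.000628). TONSL and MMS22L, which form 1 complex at stalled forks, went opposite ways with AMI-5, at -0.36 and 0.32 (adjusted p = 0.00736 and 0.0077). Their GC contents are 63.6% and 38.0%, and after the correction they gave -0.16 and 0.20 (adjusted p = 0.0339 and 0.00408).

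PLK1, a kinase of mitotic entry, fell by 0.28 on the log2 scale with AMI-5 (adjusted p = 0.00486), and CDC20, an activator of the anaphase promoting complex, by 0.21 (adjusted p = 0.0265). CDK1, the mitotic cyclin-dependent kinase, gave 0.18 (adjusted p = 0.0779). DSCC1 rose by 0.39, ATAD5 by 0.27 and E2F5, a repressive E2F, by 0.34 (adjusted p = 0.0215, 0.0413 and 0.0452). RECQL4 fell by 0.25, RAD9A, a subunit of a checkpoint clamp, by 0.28 and CABIN1, a partner of a histone chaperone, by 0.27 (adjusted p = 0.0361, 0.0408 and 0.018). RRM2B, DCK and E2F4 gave 0.27, 0.21 and -0.20 and did not pass (adjusted p = 0.0708, 0.0898 and 0.0817). All of these named calls but that of DTYMK were lost in 4 to 6 of the 9 fits that left out a library. Among them were the fits without AMI-5 replicate 1 or 2 and control replicate 1 or 3. Of all genes, 0.941% to 1.61% were called with AMI-5 in those fits, against 10.9% with all libraries. With the GC correction ATAD5, RECQL4, RAD9A, E2F5 and CDC20 did not pass.

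Library totals ran from 14454113 to 24693020 counts, and the 47 genes had from 66 (CCNE1) to 9754 (RPA1) counts per library. Of 10 endothelial marker genes 9 were in the tables, led by ENG at a mean of 432 CPM, and PECAM1 was not among the genes analysed. Summed, they held 684 to 909.5 CPM with AMI-5, 879.6 to 1102 with AMI-1 and 818 to 1158 in control. Of the 9, 5 passed the test in AMI-5 against control, 0 in AMI-1 against control and 5 in AMI-5 against AMI-1. Of all genes tested, 10.9%, 0.421% and 5.01% passed in these comparisons. Of 6 fibroblast markers 5 were in the tables, and DCN was not among the genes analysed. COL1A1 averaged 3104 CPM and COL1A2 194, while COL3A1, PDGFRA and LUM averaged 9.47, 1.47 and 1.25. The 5 summed to 2411 to 3109 CPM with AMI-5, 3060.3 to 4085 with AMI-1 and 2951 to 4387 in control. Of these 5, 1 passed in AMI-5 against control and 1 in AMI-5 against AMI-1. Of 8 smooth muscle and pericyte markers 7 were in the tables, led by TAGLN at 400.4 CPM. PDGFRB and NOTCH3 averaged 50.2 and 42.9 CPM, and MYH11, ACTA2, RGS5 and CNN1 averaged 10.4, 8.04, 2.33 and 1.36. The 7 summed to 409 to 599 CPM with AMI-5, 434 to 569.6 with AMI-1 and 430.3 to 613 in control. Of 6 epithelial markers KRT18 (259 CPM) and KRT8 (62.9 CPM) were in the tables, with sums of 201 to 372 CPM with AMI-5, 264 to 392 with AMI-1 and 237 to 411 in control, and EPCAM, KRT5, KRT14 and CDH1 were not among the genes analysed. The part of these markers in the results was not tested.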

How the data were processed

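The authors deposited raw read counts per gene as whole numbers, in a table for each compound with the same control libraries in both (0 control counts differed). Per the submitters' processing notes, BWA, bedtools and the build hg19 were used; no source used here gives versions, annotation or strand. In both tables (18385 and 18598 genes) no gene had a mean count below 10, so genes in both were used (18293).

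Counts were tested with edgeR 4.0.16 in R 4.3.3 (glmQLFit, TMM, filterByExpr, which removed 9 genes), in 1 fit of 9 libraries with replicate number as a block. The SE is that implied by the F test. Pairing by number comes from the rule for the genes and from column names that share a prefix: deviations from group means correlated at 0.431 to 0.871 in the 9 pairs of libraries with the same number and at -0.804 to 0.204 in the 18 others. The biological coefficient of variation was 5.64% with the block and 23.7% without. GC correction subtracted a lowess curve (span 0.3) of each library's log2 deviation on transcript GC content (GENCODE release 29, known for 97.5% of genes). Level per length used the same annotation's exon length, joined over all transcripts of a gene. The fit was tested on simulated data. Total counts are in the report. Their size bears on counting error only, and the spread between libraries limits precision as well.

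The genes, role groups, pathway lists and tests were chosen with earlier results of these data known. Genes were named by a rule: those past the threshold in each of the 3 comparisons, at most 12, or the 4 of lowest p where fewer passed, the highest, the lowest and the most abundant of each of the 9 role groups, and the 3 of lowest p of each pathway list. Members named beyond that rule are given for completeness. Alternatives were no block, size factors of DESeq2 1.42.0, DESeq2 itself, no filter, 2 groups only, each table alone, GC correction and leaving out each library.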

Additional observations from a re-analysis of the deposited data

How the results depend on the processing

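Without the replicate block, 0 genes passed in each of the 3 comparisons, so the replication genes called lower with AMI-5 went from 3 to 0. With AMI-5 against control the numbers called higher and lower among the 47 genes (0 and 3, of 1988 genes in all) became 4 and 8 of 4286 with the 2 groups alone, 3 and 8 of 4328 in the table of AMI-5 alone, and 1 and 1 with the replicate block and GC correction. Leaving out 1 library gave 0 to 4 higher, 1 to 7 lower and 172 to 4232 genes in all. With AMI-1 against control (0 and 0, of 77) GC correction gave 1 higher, of 573 in all, and leaving out 1 library 0 to 1 higher, 0 to 0 lower and 14 to 308 in all. In AMI-5 against AMI-1 (0 and 0, of 916) GC correction gave 2 higher and 3 lower, of 2054, and leaving out 1 library 0 to 1 higher, 0 to 8 lower and 195 to 3408 in all. E2F1 with AMI-5 (-0.05) turned to 0.13 with GC correction and to 0.01 without AMI-5 replicate 1 or control replicate 1 (range -0.11 to 0.01), and TK1 (-0.07) to 0.12 with GC correction. The cause was not tested. Without AMI-1 replicate 1, AMI-5 replicate 1 or 2, or control replicate 1 or 3, POLD2 was the only replication gene called with AMI-5. In those fits 0.941% to 7.3% of all genes were called. Other size factors ended the call of POLD1 and DESeq2 that of LIG1; with no filter and these 2, the values recomputed kept their direction and no count of calls moved by over 1.5 times. Low counts limit CCNE1, whose intervals are the widest.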
